A study of Homo sapiens with 2 samples.

Results

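RBMS3 is an RNA-binding protein, and the sites described here are those of its CLIP-seq map that lie inside introns. Each site is a single deleted base in a list of 27706 RBMS3-binding sites called on pooled CLIP-seq tags. With the mitochondrial chromosome left out, 27486 sites remained. A site was counted as intronic when its base lay within the span of an annotated transcript on the same strand (GENCODE release 44, hg38) and in no exon of any transcript on that strand. In total, 3143 sites met this rule, which was 11.4% of the list (95% Wilson interval 11.1 to 11.8%). The share depended on the sites counted, at 4.18% with at least 20 deletions and 19.4% over clusters of sites within 50 nt. It was 0.911% where the base was missing from under 30% of the tags and 35.8% at 30% or more. Another 21230 sites lay in 3′UTRs and 1805 in intergenic sequence.

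RBMS proteins are single-stranded RNA-binding proteins that recognize short A- and U-rich sequence through RNA recognition motifs, and they are best known for binding mRNA 3′UTRs. Introns are transcribed with the gene and removed by splicing, so a protein bound there may be on precursor RNA, the excised intron, a retained intron or a transcript that ends within the intron. Such early ends are made by cleavage and polyadenylation, which usually needs a poly(A) signal, AATAAA or ATTAAA in DNA letters, shortly upstream of the new end.

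The cells were MDA-MB-231, a long-established human cell line from a triple-negative breast cancer, made to express FLAG-tagged RBMS3. They were irradiated at 254 nm with 400 mJ/cm2, and RNA recovered with an antibody against FLAG was given a poly(A) tail and captured and primed with oligo(dT). There was 1 group with 2 biological replicates. The source and cell line labels of replicate 2 read MDA-MB-232, whereas its title reads MDA-MB-231. The protein was a tagged copy expressed in the cells, so the sites are not those of the endogenous protein. The authors called the sites on the pooled tags of both replicates. No value below therefore has an error between replicates, no control library was analysed here, and every interval and p-value covers counting over sites of 1 list.

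The sites with the most deletions show what an intronic site can look like. The 6 windows below are from the 10 intronic sites with the most deletions and hold a poly(A) signal, which is in capitals. Each window runs 5′ to 3′ on the RNA strand in DNA letters, 25 nt on either side of the deleted base, which is the 26th base.
EFCAB3: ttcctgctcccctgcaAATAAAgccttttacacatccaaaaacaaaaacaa
AEBP2: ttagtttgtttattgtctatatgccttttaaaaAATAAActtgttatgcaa
NECTIN3: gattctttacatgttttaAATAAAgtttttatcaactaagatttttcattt
TNRC18: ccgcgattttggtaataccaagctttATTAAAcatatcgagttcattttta
FBXL14: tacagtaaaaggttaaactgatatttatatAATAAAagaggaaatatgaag
PHF7: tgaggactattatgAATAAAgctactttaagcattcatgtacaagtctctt

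The window of EFCAB3 is chr17:62382017-62382067 on the plus strand, and that of AEBP2 is chr12:19413531-19413581, also plus. The window of NECTIN3 is chr3:111201406-111201456 on the plus strand, and that of PHF7 is chr3:52415812-52415862, also plus. The window of TNRC18 is chr7:5351294-5351344 on the minus strand, and that of FBXL14 is chr12:1591374-1591424, also minus. In each of the 6 windows the deleted base was a T in a run of 3 to 5 T, either just after or just before the signal.

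The next 5 windows are from sites where the deletion was present in 30% or more of the tags. Here capitals mark the AUA motif, a 7-nt pattern of A, G or T, then A or T, then ATA, then A or T, then A, which can overlap a poly(A) signal.
RAB3GAP1: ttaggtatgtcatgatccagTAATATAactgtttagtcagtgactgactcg
CIP2A: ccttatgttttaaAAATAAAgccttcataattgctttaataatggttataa
EXOC4: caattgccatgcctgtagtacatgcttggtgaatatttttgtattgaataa
PTPRG-AS1: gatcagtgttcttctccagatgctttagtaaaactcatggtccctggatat
NF1: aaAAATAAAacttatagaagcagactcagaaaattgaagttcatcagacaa

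The window of RAB3GAP1 is chr2:135066840-135066890 on the plus strand, and that of CIP2A is chr3:108567653-108567703 on the minus strand. The window of EXOC4 is chr7:133376253-133376303 on the plus strand, that of PTPRG-AS1 is chr3:62275038-62275088 on the minus strand, and that of NF1 is chr17:31110613-31110663 on the plus strand. EXOC4 and PTPRG-AS1 had neither the motif nor a signal, although every tag at these sites carried the deletion. The windows shown are examples. The sites at 30% or more with the most tags, in ENSG00000290067 (705 tags) and ENSG00000287277 (339 tags), are not shown and also had neither. Among all 2956 clusters at 30% or more, 27.6% held the motif.

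Most intronic sites were covered by few tags, that is, few unique sequenced RNA fragments. A site had a median of 16 tags (quartiles 10 and 26, highest 13588) and a median of 14 deletions (quartiles 10 and 21, range 7 to 1162). At 2968 sites (94.4%) the base was missing from 30% or more of the tags, and the median coverage of these was 15 tags. The base was missing from every tag at 1940 sites (61.7%), where the median coverage was 12 tags and the highest 71. A base missing from every tag cannot be told apart here from a base that is missing from the genome of these cells. The remaining 175 sites, in 141 genes, had deletions in under 30% of their tags. They were covered by a median of 869 tags (lowest 123) and had a median of 49 deletions, or 6.37% of the tags.

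**Figure D1:**
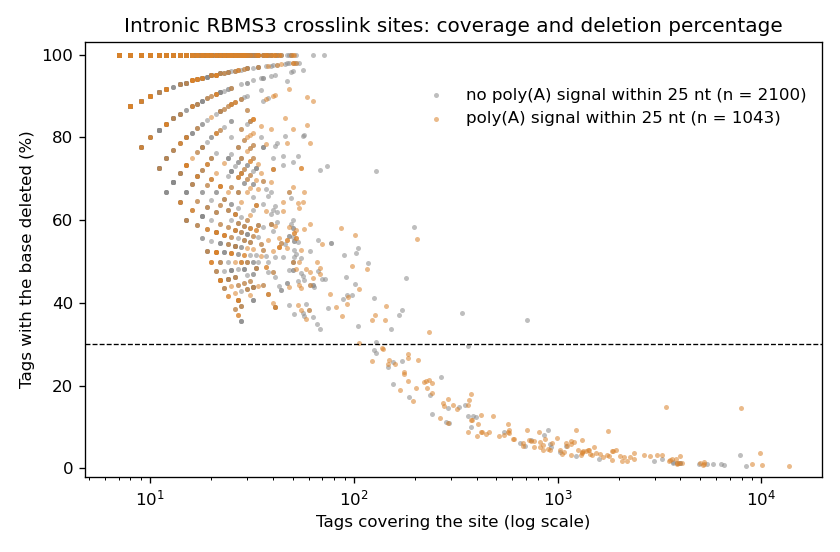
Each point is 1 of the 3143 intronic sites, with the tags that cover it on a log axis and the percentage of them that carry the deletion. Orange points have a poly(A) signal within 25 nt of the deleted base, grey points do not, and the dashed line is at 30%. The sites under 30% all have at least 123 tags, and the sites with the deletion in every tag have at most 71.

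The deletion percentage of a listed site followed its coverage. All 2943 intronic sites with fewer than 100 tags were at 30% or more, and their lowest percentage was 33.8%. Of 62 intronic sites with 100 to under 300 tags, 23 (37.1%, 95% Wilson interval 26.2 to 49.5%) were at 30% or more. Of 138 sites with 300 tags or more, 2 were (1.45%, interval 0.398 to 5.13%). In 3′UTRs, where the median coverage was 4926 tags, the shares at 100 to under 300 tags and at 300 or more were 23.7% and 0.0439%, and every 3′UTR site with fewer than 100 tags was also at 30% or more.

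Across genes, intronic clusters were more often at 30% or more than 3′UTR clusters. Sites within 50 nt on a strand were joined into 3105 intronic clusters, of which 3071 held 1 site, and each cluster was represented by its site with the most deletions. Where 1 cluster per gene was used, it was the one with the most deletions. Intergenic clusters have no gene, so all of them were counted in every comparison with 1 intronic cluster per gene. With 1 cluster per gene, the deletion percentage was 30% or more at 94.1% of 2361 intronic clusters (95% Wilson interval 93.1 to 95%) and at 13.6% of 6258 3′UTR clusters (interval 12.7 to 14.4%). Fisher's exact test, two-sided, gave a p-value returned as 0, which is smaller than the software can hold. Over every cluster, the shares were 95.2% of 3105 and 26.8% of 9980. In introns, 3′UTRs and intergenic sequence, every listed site with fewer than 100 tags was at 30% or more. Differences in this share therefore cannot be told apart from differences in coverage. Among sites with 100 to under 300 tags, an alternative added after the data were seen, the shares were 38.3% of 60 and 23.7% of 371 (adjusted p = 0.0498, Fisher's exact test). The intergenic share was 89.0% of 1753 clusters, 5.12 percentage points below the intronic share (adjusted p = 4.61e-09, Fisher's exact test), and at 100 to under 300 tags the intronic share was 13.5 points lower (adjusted p = 0.187). P-values were adjusted by the Benjamini-Hochberg method, jointly for 13 tests, or for the tests run in an alternative.

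Intronic sites held a poly(A) signal far more often than the intron next to them. With 1 cluster per gene, 34.0% of 2173 windows around the deleted base held AATAAA or ATTAAA, compared with 6.72% of windows centred 200 nt upstream in the same intron, a ratio of 5.06. The signal was present only at the site in 683 genes and only in the flank in 90 (exact McNemar test, two-sided, adjusted p = 5.30e-113). The AUA motif was present in 29.4% of the windows and in 9.39% of the flanks, a ratio of 3.13, with 566 genes for the site alone and 132 for the flank alone (adjusted p = 1.66e-64, exact McNemar test). The windows were also richer in A and T, at 66.9% of bases over all clusters against 60.4% in the upstream flanks. The part of this base composition in the motif shares was not tested.

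The sites with low deletion percentages carried these sequences most often. A poly(A) signal was present in 112 of 149 clusters under 30% (75.2%, 95% Wilson interval 67.7 to 81.4%) and in 908 of 2956 clusters at 30% or more (30.7%, interval 29.1 to 32.4%). The AUA motif was present in 65.1% and 27.6%, respectively. The flanks 200 nt upstream of these same clusters held a signal in 4.65% and 6.98% of windows. Of the clusters under 30%, 79 held both a signal and the motif, and 19 held neither. The share fell over the range of deletion percentages, from 79.3% of 92 clusters under 10% to 68.4% of 57 at 10 to 30%, 38.8% of 165 at 30 to 50%, 33.2% of 856 at 50% up to but not including every tag, and 28.9% of 1935 with the deletion in every tag. These are descriptions, since the percentage moved with coverage, from a median of 1158 tags in the first of these bins to 12 in the last.

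Much of the AUA motif in introns was the poly(A) signal itself read in the longer pattern. A match to the motif without AATAAA inside it was present in 20.1% of clusters under 30% (95% Wilson interval 14.5 to 27.3%) and in 10.2% of those at 30% or more (interval 9.14 to 11.3%). In the upstream flanks of all clusters it was present in 5.62% (interval 4.84 to 6.53%). AATAAA, with or without the AUA motif, was present in 59.7% of clusters under 30%, in 21.2% of those at 30% or more and in 3.85% of the flanks.

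Compared with 3′UTR sites, the direction of the difference depended on the deletion percentage. Over all sites, with 1 cluster per gene, a signal was present in 34.3% of intronic and 74.6% of 3′UTR clusters (adjusted p = 2.40e-256, Fisher's exact test), and the AUA motif in 29.9% and 56.1% (adjusted p = 7.92e-106). Over every cluster, the signal was in 32.9% of 3105 intronic and 60.6% of 9980 3′UTR clusters, and the motif in 29.4% and 47.8%. Among sites at 30% or more, intronic clusters held both sequences more often than 3′UTR clusters did. The signal was in 31.6% of 2288 against 20.5% of 2203 (adjusted p = 5.07e-17, Fisher's exact test) and the motif in 27.9% against 21.1% (adjusted p = 1.36e-07). Under 30%, the signal was in 75.9% of 141 intronic and 81.3% of 5424 3′UTR clusters (adjusted p = 0.161, Fisher's exact test), and the motif in 63.8% and 60.8% (adjusted p = 0.594). Sites at 30% or more made up 94.4% of intronic and 12.9% of 3′UTR sites. The part of this in the lower share over all sites was not tested.

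Over all sites, intergenic clusters held both sequences more often than intronic clusters. The signal was in 46.8% of 1753 intergenic clusters (adjusted p = 7.88e-16 against the intronic 34.3%, Fisher's exact test) and the motif in 39.5% (adjusted p = 2.60e-10). With every intronic cluster counted as well, the intronic shares were 32.9% for the signal and 29.4% for the motif. Under 30% the directions were reversed and neither passed the test, with the signal in 75.9% of 141 intronic and 72.2% of 194 intergenic clusters (adjusted p = 0.594, Fisher's exact test) and the motif in 63.8% and 53.6% (adjusted p = 0.160). Within introns, clusters in lncRNA genes held a signal in 42.1% of 328 (95% Wilson interval 36.9 to 47.5%), and clusters in protein-coding genes in 31.7% of 2744 (interval 30 to 33.5%).

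**Figure D2:**
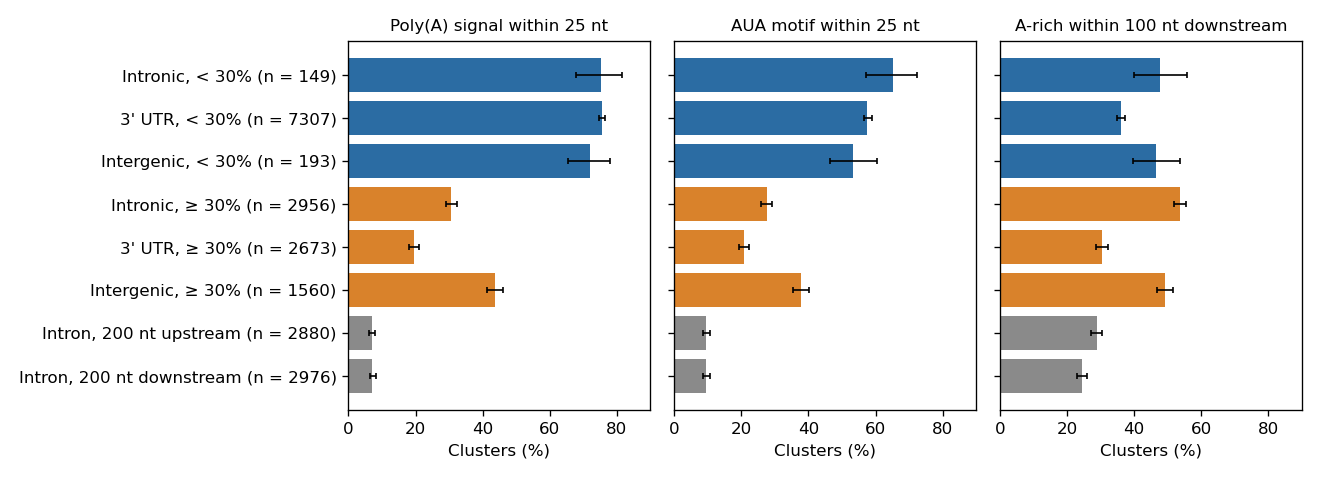
Bars are the percentage of clusters with a poly(A) signal, the AUA motif or an A-rich stretch, for intronic, 3′UTR and intergenic clusters under 30% (blue) and at 30% or more (orange) of tags deleted, and for flanks of the intronic clusters (grey). Error bars are 95% Wilson intervals, and n is the number of clusters. The signal is in 75.2% of intronic clusters under 30%, in 30.7% of those at 30% or more and in 6.88% of upstream flanks.

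Poly(A) signals lay close to the deleted base. In the 112 clusters under 30% with a signal, the nearest one started a median of 4 nt upstream of the deletion, and 64 of them (57.1%) started upstream. In bins of 5 nt, signals were densest 6 to 10 nt upstream, with 20.1 per 100 clusters, and 11 to 15 nt upstream, with 15.4. There was a further rise from 0 to 9 nt downstream, with 12.8 in each bin. In the clusters at 30% or more, the densest bin was also 6 to 10 nt upstream, with 5.58 per 100 clusters, and signals were spread further downstream, with 4.77 per 100 clusters at 10 to 14 nt and 2.98 at 20 to 24 nt.

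**Figure D3:**
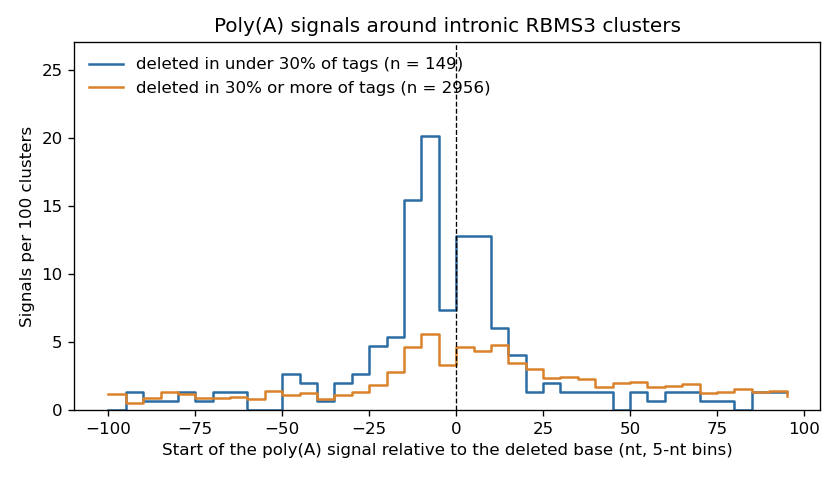
Lines give the number of poly(A) signals per 100 intronic clusters that start in each 5-nt bin around the deleted base (dashed line), for clusters under 30% (blue, n = 149) and at 30% or more (orange, n = 2956). Both lines are highest 6 to 10 nt upstream, at 20.1 and 5.58.

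Among hexamers, the canonical poly(A) signal stood first. Of 76 hexamers present in at least 5% of 2880 intronic windows, AATAAA had the highest ratio to the upstream flank, at 22.8% against 3.85% (5.92 times). Hexamers were not tested.

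A-rich stretches, defined as 6 A in a row or at least 12 A in any 20 nt, were common downstream of intronic sites. They were present within 100 nt downstream of 54.0% of the sites and of 29.2% of the flank positions in the same introns (adjusted p = 1.81e-70, exact McNemar test). The intronic share of 53.2% was also above the 33.3% of 3′UTR clusters (adjusted p = 3.57e-63, Fisher's exact test), and the same held within genes bound in both, at 53.9% against 36.9% (adjusted p = 1.30e-17, exact McNemar test). The intergenic share was 48.9% (adjusted p = 0.00668, Fisher's exact test). Without intronic sites that resemble another gene's transcript or follow a pseudogene, an alternative added after the data were seen, the intronic share was 49.1% (adjusted p = 0.922 against intergenic, Fisher's exact test). Only intronic sites were searched and removed, and all 1753 intergenic clusters were kept. The part of such copies in the difference therefore cannot be read from this comparison. In contrast to the signal, A-rich stretches were about as frequent in clusters under 30% (47.7%, 95% Wilson interval 39.8 to 55.6%) as in those at 30% or more (53.7%, interval 51.9 to 55.4%). The library was primed with oligo(dT), and the part of priming at genomic A-rich sequence in these sites was not tested.

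The deleted base was most often a T, the base written for U. It was T in 57.6% of 2361 intronic clusters with 1 per gene, 75.8% of 3′UTR clusters (adjusted p = 3.39e-59, Fisher's exact test) and 52.4% of intergenic clusters (adjusted p = 0.00106). Over all intronic clusters, T made up 72.5% of the deleted bases under 30% and 57.3% at 30% or more, compared with 32.8% of the flank positions 200 nt upstream. G made up 3.36% and 16.2%, respectively, and 20.4% of the flank positions. The deleted base lay in a run of exactly 3 T in 36.2% of clusters under 30% and 18.2% of those at 30% or more, and 5.24% of flank positions lay in such a run. Within a run the position of the missing base is arbitrary. At single bases, with a different base on either side, T was deleted in 33.0% of 621 intronic and 29.9% of 545 3′UTR clusters (adjusted p = 0.283, Fisher's exact test), and in 28.5% of 632 intergenic clusters (adjusted p = 0.0938). The difference from intergenic clusters also did not pass with at least 20 deletions (adjusted p = 0.119, Fisher's exact test). Under 30%, T was deleted in 71.6% of intronic, 77.7% of 3′UTR (adjusted p = 0.161, Fisher's exact test) and 69.1% of intergenic clusters (adjusted p = 0.694).

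Intronic clusters lay within 500 nt of an exon slightly more often than the intron sequence at large. The median distance to the nearest exon on the strand was 1928 nt (quartiles 640 and 5420 nt), and 78.8% of the clusters were more than 500 nt away. The share was close to that of the sequence itself, since clusters within 500 nt of an exon made up 21.2%, where the same stretches made up 18.5% of the exon-free length of the host genes, averaged over clusters. Of 2711 clusters in an intron of a representative transcript with several introns, 580 were in the first intron, 1847 in a middle intron and 284 in the last. The last intron held 10.5% of these clusters and 8.92% of the intron length, and the first held 21.4% and 24.2%. The introns that held clusters had a median length of 15920 nt, and the length-weighted median over the introns of the same genes was 16765 nt. Clusters thinned along the intron, from 25.1% in its first 20% to 15.2% in its last 20%.

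A larger share of the clusters with many tags lay just past the end of a shorter annotated transcript of the same gene. Within 1000 nt past such an end lay 30 of 149 clusters under 30% (20.1%), where these stretches made up 5.87% of the exon-free length. At 30% or more it was 246 of 2956 (8.32%), against 4.64% of the length. The 10 of these with the most deletions, at any percentage, were TNRC18, PHF7, MYEF2, ZFPM2-AS1, NHLRC3, TMEM184C, PHTF2, DBF4B, SLC30A9 and FPGT. The FPGT site was poorly covered and at 30% or more, with 56 of 63 tags (88.9%). At SLC30A9, a zinc transporter gene, the deletion was 38 nt past a transcript end, with 56 of 1257 tags (4.46%). At DBF4B, a regulatory subunit of the CDC7 kinase, it was 287 nt past an end, with 58 of 1753 tags (3.31%). At MYEF2 it was 447 nt past an end, with 86 of 2848 tags (3.02%). Each of these 3 held a poly(A) signal in its window, and TMEM184C (69 of 853 tags) did not. These genes were chosen after their values were seen, and the shares were not tested.

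**Figure D4:**
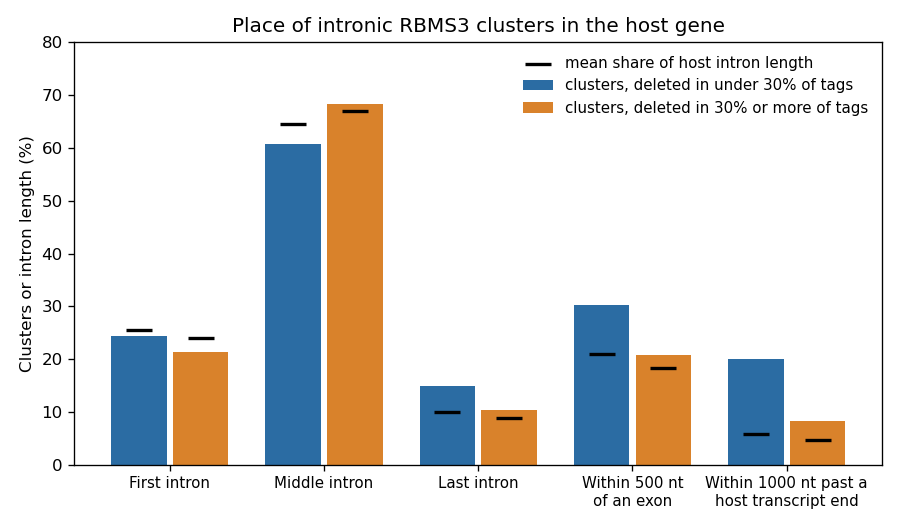
Bars are the percentage of intronic clusters in each place, for clusters under 30% (blue) and at 30% or more (orange) of tags deleted, and black lines are the mean share of the host genes' intron or exon-free length in that place. The first 3 places are shares of clusters in introns of a representative transcript. The bar for 1000 nt past a transcript end is 20.1% under 30%, against 5.87% of the length.

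The 10 intronic sites with the most deletions had between 113 and 1162 deletions, and 7 of them were under 30%. The tenth place was shared by PHF7 and ENSG00000289996, with 113 deletions each, and was given to PHF7, which had more tags. EFCAB3, an EF-hand protein gene, had 1162 deletions in 7965 tags (14.6%, 95% Wilson interval 13.8 to 15.4%). AEBP2, an accessory subunit of the Polycomb repressive complex PRC2, had 507 in 3408 (14.9%, interval 13.7 to 16.1%). These 2 had more deletions than any other intronic site. NECTIN3, a cell adhesion gene, had 354 in 9832 tags (3.60%), and PTGFR, the receptor of prostaglandin F, had 262 in 7889 (3.32%). TNRC18 had 159 in 1763 (9.02%), FBXL14, an F-box protein of ubiquitin ligases, 120 in 3989 (3.01%), and PHF7 113 in 1226 (9.22%). Of the 10 sites, 7 held the AUA motif and 6 a poly(A) signal.

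The other 3 of these 10 were at 30% or more. The lncRNA gene ENSG00000290067 had 253 deletions of a G in 705 tags (35.9%), the most tags of any intronic site at 30% or more. It was followed in tags by the lncRNA gene ENSG00000287277, with 127 deletions of a C in 339 tags (37.5%), and by CIP2A, an inhibitor of protein phosphatase 2A, with 77 of a C in 234 (32.9%). The lncRNA gene ENSG00000289996 had 113 deletions of a G in 204 tags (55.4%), and RAB3GAP1, the catalytic subunit of a Rab GTPase-activating complex, 115 of a T in 197 (58.4%). In all 5, neither neighbour was the same base as the deleted one. With the deletion in every tag, the best covered sites were in EXOC4, an exocyst subunit (71 tags), PTPRG-AS1 (63), HS2ST1 (52), NF1, a negative regulator of Ras (51), and HERC1 (50), chosen after their values were seen.

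Some of the most covered sites lay next to processed pseudogenes, which are reverse-transcribed copies of an mRNA inserted into the genome. Within 1000 nt downstream of such a pseudogene nested in the intron lay 7 of the 175 sites under 30%, in 5 genes, and 12 of the 2968 at 30% or more. The EFCAB3 site lay 27 nt past the pseudogene ENSG00000239809, and the AEBP2 site 95 nt past PDCD5P1, a copy of PDCD5. The intronic site with the most tags, in TMEM222, lay 722 nt past ACTG1P20, a copy of the gamma-actin gene ACTG1, and had 75 deletions in 13588 tags (0.552%). A site in FAM172A lay 312 nt past NPM1P27, a copy of the nucleophosmin gene (86 of 2373 tags, 3.62%), and 1 in SHLD2P3 lay 340 nt past RHEBP2 (55 of 5219, 1.05%). All 7 sites under 30% held a poly(A) signal, as did 2 of the 12 others. The sites in TMEM222, FAM172A and SHLD2P3 were chosen after their values were seen.

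Similarity to other transcripts was looked for in every intronic site. The sequence 50 nt to either side of 499 sites (15.9%) matched a transcript of another gene over at least 80 nt at 80% identity or more, and 309 of these matched more than 10 genes, as repeated sequence does. Among sites under 30% this held for 20 (11.4%) and among the others for 479 (16.1%). The AEBP2 site matched PDCD5 at 92.9% over 84 nt, and the PHF7 site matched MTAP at 83.5% over 97 nt. The exact 40 nt around the base occurred more than once in the genome for 65 sites (2.07%), and with the base removed it occurred elsewhere for 1 site. The part of tags from such copies in the intronic sites was not tested.

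Intronic sites were spread over 2361 host genes, of which 2061 were protein-coding and 271 were lncRNA genes. At 185 sites the base lay in introns of more than 1 gene and was given to 1 of them, and 42 sites (1.34%) lay in an exon on the opposite strand. In 1816 genes there was 1 cluster, in 399 there were 2, and in 13 there were 5 or more. The most clusters were in PTK2, the focal adhesion kinase gene, with 7. There were 6 each in DPYD, which encodes the enzyme that begins uracil breakdown, EXOC4, PSD3 and the transcription factor gene RUNX1. LRRFIP2 had 5 clusters with 6 sites, and ARIH1, COL8A1, FNDC3B and FRYL had 5 with 5 sites. The names after LRRFIP2 were taken in alphabetical order, and MAGI1, MIR924HG and PTPRJ also had 5 clusters with 5 sites. Of these 13 genes, all but MAGI1 and MIR924HG had a 3′UTR cluster, and MIR924HG is a noncoding gene without a 3′UTR. Genes with 5 or more clusters were long, with a median of 349 kb outside exons, where all host genes had a median of 88.6 kb. Per 100 kb outside exons, PTK2 had 2.13 clusters, ARIH1 4.73, LRRFIP2 4.17 and RUNX1 0.500, compared with 0.854 over all host genes.

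The sites within these genes were poorly covered. In PTK2 they had 7 to 19 tags, and 6 of 7 had the deletion in every tag. In COL8A1 they had 8 to 18 tags, with the deletion in every tag at all 5 sites. LRRFIP2 was the only gene of the 10 with sites under 30%, at 2 of 6, and its coverage ran from 11 to 4000 tags.

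Of the host genes, 1258 (53.3%) also had a cluster in a 3′UTR, which was 20.1% of the 6258 genes with one. Among the 141 genes with an intronic site under 30%, 69 (48.9%) had a 3′UTR cluster. Both of these groups of host genes include noncoding genes, which cannot have a 3′UTR cluster. Among the protein-coding hosts of all intronic clusters the share was 61%. Over all 20046 protein-coding genes, 31.2% had a 3′UTR site and 10.3% had an intronic site. All of these shares depend on which genes are expressed and how long they are, and expression was not measured in these files.

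Lists of genes from the study and from related pathways were looked up in the same way. Over all protein-coding genes, 10.3% of 20046 had an intronic site and 31.2% had a 3′UTR site, without regard to expression or length. None of the 3 RBMS genes had one, while all 3 had a 3′UTR site. Of 13 genes of the pooled screen, all had a 3′UTR site and 3 had an intronic site. The study chose the screen genes among those bound by RBMS3 in the 3′UTR, so the first count follows from that choice. HMGB3 was added to this list later and had no intronic site. NRP1, a co-receptor for semaphorins and VEGF, had 3 (27 of 27 tags, 11 of 11 and 7 of 8), MOCOS had 1 (26 of 26) and ENPP1 had 1 (7 of 8). The MOCOS site matched transcripts of 325 other genes.

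Of 17 genes of TGF-β and SMAD signaling, 7 had intronic sites, 12 in all, and 13 had 3′UTR sites, where the shares over protein-coding genes were the 10.3% and 31.2% above. SMAD2, a receptor-activated SMAD, had 1 with 42 deletions in 77 tags (54.5%), and SMAD3 had 1 with 28 in 28. SMURF2, a ubiquitin ligase of this pathway, had 4 with 8 to 27 tags, of which 1 matched transcripts of 298 other genes, and SMURF1 had 1 with 17 deletions in 31 tags. ZEB1, a transcription factor of epithelial-mesenchymal transition, had 3 with 7 to 32 tags. TGFBR1 and TGFB2 had 1 each, with 10 and 8 tags, all deleted. None of the 12 sites held the AUA motif or a poly(A) signal.

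Of 8 genes known for poly(A) sites in introns, 3 had an intronic RBMS3 site, again beside 10.3% of protein-coding genes. In CSTF3, a cleavage stimulation factor subunit, the site had 27 deletions in 61 tags (44.3%) in intron 3 of 20, and in MAGI3 22 in 25 (88.0%) in intron 16 of 20. Both held the motif and a signal. EPRS1 had 12 deletions in 12 tags and held neither. The nearest annotated host transcript end upstream lay 10676 nt from the CSTF3 site, 88855 nt from MAGI3 and 2788 nt from EPRS1. Of 26 genes known for detained introns or poison exons, 2 had intronic sites and 24 had 3′UTR sites. SRSF11, a splicing regulator, had 40 deletions in 55 tags (72.7%) at a site 205 nt past a transcript end that held both sequences, and 8 in 8 at another that held neither. LUC7L3 had 21 in 21, at a site that matched transcripts of 350 other genes. None of 14 snoRNA host genes had an intronic site, and 4 had a 3′UTR site. This list includes noncoding genes, such as GAS5 and SNHG1, which have no 3′UTR. Its 3′UTR count therefore cannot be set beside the share over protein-coding genes. Over all 6 lists, 0 of 23 intronic sites were under 30%, where 5.57% of all intronic sites were. Nothing particular to a list was read from these counts.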

How the data were processed

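The deposited values are counts per site: pooled unique tags that cover it and tags with the deletion. The authors appended molecular identifiers, aligned reads to hg38 with the CLIP Tool Kit, pooled both replicates and kept deletion sites at a stated FDR under 10% and a fold change over 10, whose terms are not defined further. Depth is known per site only. The number of unused per-sample columns was 0.

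The deleted base was the centre of the 21-nt interval. Representative transcripts numbered introns. Flank windows were used where they lay in the same exon-free stretch. Near copies came from blastn (BLAST 2.17.0, e-value 1e-10), a search chosen after the data were seen. Named were the 10 sites with most deletions, the 10 genes with most clusters, the 5 sites with most tags at 30% or more, the leading hexamer (the other 9 of the rule's 10 are not reported here) and listed genes with an intronic site. Members, lists and tests were chosen with earlier results of these data known. Functions were tested on simulated data. Sequences were read from hg38. Alternatives covered deletion counts and percentages, windows, flanks, exons and hosts. Tests used scipy 1.17.1 under Python 3.11.15, tables pandas 2.3.3, sequences pysam 0.24.0 and figures matplotlib 3.10.9.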

Additional observations from a re-analysis of the deposited data

How the results depend on the processing

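Of 108 values of the tests under alternatives, 92 kept their direction and their side of the threshold of 0.05. No paired analysis was possible because, for a pairing of replicates, the single group has its replicates pooled within the list, and leaving a replicate out was not possible either. Depth limits the deletion percentage, since sites with few tags are listed only at high percentages. The cause of the changes below was not tested.

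With deletions in under 30% of tags, differences in percentage points became 3.03 and 10.2 for the AUA motif against 3′UTR and intergenic clusters (both reversed), -5.44 and 3.72 for the poly(A) signal (the second reversed), 0.611 for A-rich stretches against intergenic, and -6.02 and 2.56 for deleted T. None of these 7 passed. At 30% or more, the differences from 3′UTR clusters reversed to 6.82 for the motif and 11.1 for the signal. With at least 20 deletions, A-rich stretches and deleted T against intergenic were at 3.59 and 4.2 and did not pass. With 8 A within 50 nt, the A-rich difference from intergenic was 0.975. Without near copies and pseudogenes, removed from the intronic side only, it was 0.202. Where the base differed from both neighbours, deleted T was at 3.10 against 3′UTR (reversed) and 4.53 against intergenic. At 100 to under 300 tags, the difference in sites at 30% or more from intergenic reversed to -13.5.

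The intronic share of 11.4% was 4.18% with at least 20 deletions, 0.911% under 30%, 35.8% at 30% or more, 19.4% over clusters and 10.1% with protein-coding hosts. Under 30%, 69.8% of clusters were over 500 nt from exons and 48.9% of host genes, noncoding ones included, also had a 3′UTR cluster. Among the protein-coding hosts of all intronic clusters, 61% had a 3′UTR cluster. With a split at 50%, 56.1% of the lower clusters held a signal.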
